A study of Mus musculus with 14 samples.

Results

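Brain RNA of mouse embryos at 15.5 days post coitum (dpc) was compared with brain RNA at 13.5 dpc, on 6 of the 14 Affymetrix 430A expression arrays of the series. At 15.5 dpc there were 4 arrays, 2 for each of 2 genotypes, and at 13.5 dpc there were 2 arrays, 1 for each genotype. All 6 came from T9H/+ embryos, heterozygous for a reciprocal translocation between chromosomes 7 and 15. MatDp7 embryos had both copies of proximal chromosome 7 from the mother and both copies of proximal chromosome 15 from the father, and PatDp7 embryos had the reverse. No array carried the normal parental contribution. The labels call the 15.5 dpc arrays of a genotype biological replicates, and they state neither the animals per sample, nor the sex, nor how the brains were dissected. The p-values therefore measure the spread between these samples, and at 13.5 dpc no genotype has a second array.

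In the mouse forebrain, radial glial progenitors divide at the ventricle, turn into intermediate progenitors and neurons, and later into astrocytes and oligodendrocytes. Neurons then move outward, extend axons and begin to make the proteins of synaptic vesicles. The brain of this period is wrapped in mesenchymal meninges, is entered by blood vessels, and lies next to the eye, the skull cartilage, the muscles of the head and the skin. In the blood, primitive erythrocytes from the yolk sac with embryonic globins are replaced by cells from the fetal liver with adult globins.

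The 6 arrays had been brought to a common scale before deposition, with a median intensity of 213 to 256. Correlations of log2 intensity were 0.947 to 0.970 among the 15.5 dpc arrays, 0.961 between the 13.5 dpc arrays and 0.824 to 0.887 between the ages. The ratio of 3' to 5' Gapdh intensity, a sign of RNA integrity, was 0.76 to 0.89. The Actb ratio was 1.01 to 1.07 on 5 arrays and 1.45 on 15.5 dpc MatDp7 replicate 2. Xist, the RNA that coats the inactive X chromosome in females, was at 5760 and 4370 on the 13.5 dpc arrays and at 5320 and 4330 on the 15.5 dpc replicate 2 arrays. It was at 217 and 198 on the 15.5 dpc replicate 1 arrays, so the ages differ in the mix of Xist levels. Eif2s3y, a gene of the Y chromosome, ran the opposite way, at 171 and 114 on the replicate 1 arrays. It was at 0.93 and 1.45 on the replicate 2 arrays and at 4.54 and 0.602 on the 13.5 dpc arrays. A comparison restricted to the 15.5 dpc replicate 2 arrays, which match the 13.5 dpc arrays in Xist, called 3258 probe sets against 2940 with all 4, and 2483 were called in both. Restricted to the replicate 1 arrays, which do not match, it called 4064, with 2823 in both. The part played by the mix of Xist levels was not tested.

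The markers went partly against the label of the 13.5 dpc samples. Both 13.5 dpc arrays had high intensities for genes of lens, epidermis, skeletal muscle, cartilage and head mesenchyme, and all 4 arrays of 15.5 dpc had lower summed intensities for each of these lists. Summed over the 19 skeletal muscle genes on the array, intensity was 11382 in MatDp7 and 13628 in PatDp7 at 13.5 dpc, and 1034.7 to 1573.5 at 15.5 dpc. The 16 epidermal genes summed to 11619 and 14707 against 1243.4 to 1743.5. The 15 eye and pigment cell genes summed to 7291.8 and 10161 against 1270.2 to 1637.7. On the 8 neonatal cortex and cerebellum arrays of the series, the same sums were 1079.9 to 2167.5 for muscle, 1176.3 to 2206.8 for epidermis and 1237.7 to 2067.6 for eye. The 15.5 dpc sums therefore lay within the neonatal range or just below it, and the 13.5 dpc sums lay far above. Age and the presence of non-neural transcripts cannot be told apart on these 6 arrays, and this applies to each result that follows. In whole tissue, fewer cells of a type and less RNA per cell cannot be told apart either.

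A gene was called where the limma test of the age difference, with genotype in the model, had a Benjamini-Hochberg adjusted p under 0.05 over all probe sets tested. The difference was taken on the scale of log2(intensity + 50.442), negative where 15.5 dpc was lower, and adjusted p-values are from limma throughout. Of 8219 genes tested, 1919 were called (23.3%): 902 were called higher at 15.5 dpc, which is 11.0%, and 1017 were called lower, which is 12.4%. Each count of tested genes of a list given below is to be read beside these shares. The largest differences were mostly downward. Among called genes, 81 were lower by at least 2 on the log2 scale and 8 were higher by as much. At least 3 log2 units separated the ages for 32 lower genes and for 0 higher ones. All 1017 lower genes had every 15.5 dpc array under both 13.5 dpc arrays, and 895 of the 902 higher genes had every 15.5 dpc array above both. The calls came from the same arrays, so this separation largely follows from them and adds no support. The share that separates over all genes tested was not counted. This also applies to most genes named below, which were picked for large differences or small p. Of probe sets, 1444 were called higher and 1496 lower. Scaling the arrays by their medians moved this to 1949 higher and 1128 lower, since it shifted the median difference of all probe sets from -0.04 to 0.09. The count also rested on the 13.5 dpc arrays. It was 990 probe sets without the MatDp7 array of 13.5 dpc and 816 without the PatDp7 array, against 2940 with both. A fit that pooled the spread of all 14 arrays called 938.

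The 15 genes with the largest falls were Cryba1, Krt14, Krt15, Cryaa, Krt5, Hba-x, Myl1, Hbb-bh1, Cryga, Mylpf, Mfap4, Crybb1, Actc1, Prrx1 and Tnni1. They are structural proteins of the lens, the basal layer of skin and striated muscle, embryonic globins, and genes of connective tissue. Many of them had intensities near the floor of the array at 15.5 dpc. In 19 called genes the 15.5 dpc mean was below 50.442, the number added before taking logs. How large their log2 difference comes out depends mostly on that number, so their intensities should be read instead.

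Lens crystallins, the water-soluble proteins that make up the lens fibre cells, had the largest differences. Cryba1, a beta crystallin, was at 12.3 and 6.19 in MatDp7 and 8.905 and 12 in PatDp7 at 15.5 dpc, and at 1774 in MatDp7 and 2747 in PatDp7 at 13.5 dpc. The log2 difference was -5.23 ± 0.19 (SE, adjusted p = 3.276e-06). Cryaa, the alpha crystallin chaperone, was at 15.0, 10.4, 9.33 and 11.98 at 15.5 dpc and at 1401 and 2163 at 13.5 dpc, a difference of -4.85 ± 0.20. Cryga, a gamma crystallin, stood at 10.8 to 37.4 against 1266 and 2031. Crybb1 was at 29.7 to 125.5 against 1540 and 1888, and Crybb3 at 84.2 to 172.8 against 1476 and 1773. In each of these 5 crystallins the 2 ages were separated by a wide gap, and the neonatal arrays were at the 15.5 dpc level. Of 8 eye and pigment cell genes tested, 5 fell, 1 rose and 2 were not called, with a median of -0.85, beside -0.04 over all genes tested. The gene that rose was Rlbp1, a retinaldehyde-binding protein of retinal pigment epithelium and Müller glia that is also made by brain glia. Its intensity was 427.1, 280.5, 260.1 and 249.5 at 15.5 dpc and 104.5 and 73.1 at 13.5 dpc, a difference of 1.33 ± 0.19 (adjusted p = 0.001645). When the PatDp7 array of 13.5 dpc was left out, 3 genes of the list were called lower.

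Promoters of 3 of these crystallins are shown because the members moved together and because lens transcription factors of the MAF family are known to act on crystallin promoters. The stretches run from 180 bases before the annotated start to 20 bases after it on the gene's strand, from RefSeq on GRCm38.p6 (Cryaa chr17:31677751-31677950, plus strand; Cryba1 chr11:77725274-77725473, minus strand; Crybb1 chr5:112255640-112255839, plus strand). Capitals mark TGCTGA or its reverse complement, the arm of the MAF recognition element.
Cryaa: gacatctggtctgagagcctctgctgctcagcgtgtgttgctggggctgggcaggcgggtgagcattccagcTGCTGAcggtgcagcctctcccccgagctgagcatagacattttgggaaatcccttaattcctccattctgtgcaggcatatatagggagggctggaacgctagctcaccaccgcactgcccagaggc
Cryba1: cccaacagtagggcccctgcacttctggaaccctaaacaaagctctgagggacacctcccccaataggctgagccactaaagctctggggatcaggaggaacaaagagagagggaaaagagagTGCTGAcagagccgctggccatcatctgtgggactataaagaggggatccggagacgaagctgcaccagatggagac
Crybb1: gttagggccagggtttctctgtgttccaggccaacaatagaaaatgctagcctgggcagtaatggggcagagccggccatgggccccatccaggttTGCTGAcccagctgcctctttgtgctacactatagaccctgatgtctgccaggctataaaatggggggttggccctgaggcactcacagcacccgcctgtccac
In windows of 300 bases, from 250 before the start to 50 after, TGCTGA on either strand was present in 5 of the 7 tested crystallins (71.4%), in 14.4% of the promoters of tested genes and in 19.1% of all 27025 promoters in the table. These are matches of letters, and no binding was measured.

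Epidermal genes formed a similar block. Krt14 and its partner Krt5, the keratin pair of basal keratinocytes, were at 12.4 to 24.2 and 19.4 to 77.5 at 15.5 dpc. At 13.5 dpc Krt14 was at 1800 in MatDp7 and 2192 in PatDp7, and Krt5 was at 2640 and 3224. Their log2 differences were -4.91 ± 0.18 for Krt14 and -4.80 ± 0.26 for Krt5. Krt15, another basal keratin, was at 15.2, 11.8, 11.5 and 13.8 against 1651 and 2039. Dsp, the desmosomal plaque protein desmoplakin, was at 171.8, 106.0, 122.4 and 150.2 at 15.5 dpc and at 900.6 and 1087 at 13.5 dpc. In all, 10 of 12 epidermal genes tested fell and 0 rose, with a median of -1.94. These keratin and desmosome genes were higher on the PatDp7 than on the MatDp7 array at 13.5 dpc, as were the crystallins, but with 1 array a genotype this has no test.

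Skeletal muscle genes fell in 8 of 9 cases tested, with 0 higher and a median of -3.08. Myl1, an essential light chain of fast muscle myosin, was at 13.2, 7.31, 16.8 and 12.7 at 15.5 dpc and at 1116 and 1882 at 13.5 dpc. Mylpf, the regulatory light chain of fast muscle, was at 77.3, 26.1, 9.29 and 8.78 against 1012 and 1569. Tnni1, the slow muscle troponin I, was at 12.1 to 29.7 against 752.7 and 793.0. Actc1, the alpha actin of heart and of embryonic skeletal muscle, stayed measurable at 15.5 dpc, at 262.8, 138.3, 223.4 and 178.4, against 3309 and 3495 at 13.5 dpc. Its log2 difference was -3.81 ± 0.21. No 15.5 dpc array came near a 13.5 dpc array in any of the 4. Without the intensity filter, 14 of the 19 muscle genes and 14 of the 16 epidermal genes were called lower, beside 8.79% lower and 6.54% higher over all 12393 genes.

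Cartilage and bone genes fell in 5 of 8 cases tested, with 0 higher and a median of -0.97. Col9a1, a collagen of cartilage fibrils, was at 210.6, 176.4, 143.1 and 122.9 at 15.5 dpc and at 1551 and 1446 at 13.5 dpc, a difference of -2.87 ± 0.17. Col2a1, the major cartilage collagen, had a smaller difference of -1.32 ± 0.22, from 1135 and 954.3 to between 291.5 and 513.9. Matn4, a matrilin, was at 99.1 to 145.7 against 490.3 and 456.3, and Col11a1 was at 207.4 to 314.5 against 776.9 and 634.5. Without the MatDp7 array of 13.5 dpc, 2 of these genes were called and Col2a1 and Col11a1 were not. Unlike muscle and epidermis, the summed cartilage level was higher on the MatDp7 array of 13.5 dpc, at 6586.7, than on the PatDp7 array, at 5567.1.

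The list of meningeal and mesenchymal genes moved almost as 1 block, with 26 of 28 tested members lower, 0 higher and a median of -1.67. Its summed intensity was 102630 and 101830 at 13.5 dpc and 33569 to 43296 at 15.5 dpc. On the neonatal arrays it was 21324 to 41846. Prrx1, a homeobox gene of head and limb mesenchyme, was at 51.3, 82.9, 119.3 and 84.9 at 15.5 dpc and at 1667 and 1835 at 13.5 dpc. Twist1, a transcription factor of cranial mesenchyme, was at 10.5 to 57.0 against 915.5 and 1087. Postn, the matrix protein periostin, was at 355.4, 466.8, 514.8 and 559.2 against 2808 and 3466, a difference of -2.61 ± 0.16. Col5a2, a fibrillar collagen, was at 508.3 to 707.6 against 3608 and 3361. Mfap4, an elastic fibre protein with the eleventh largest fall, was at 15.1 to 26.6 against 1037 and 1150.

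**Figure D1:**
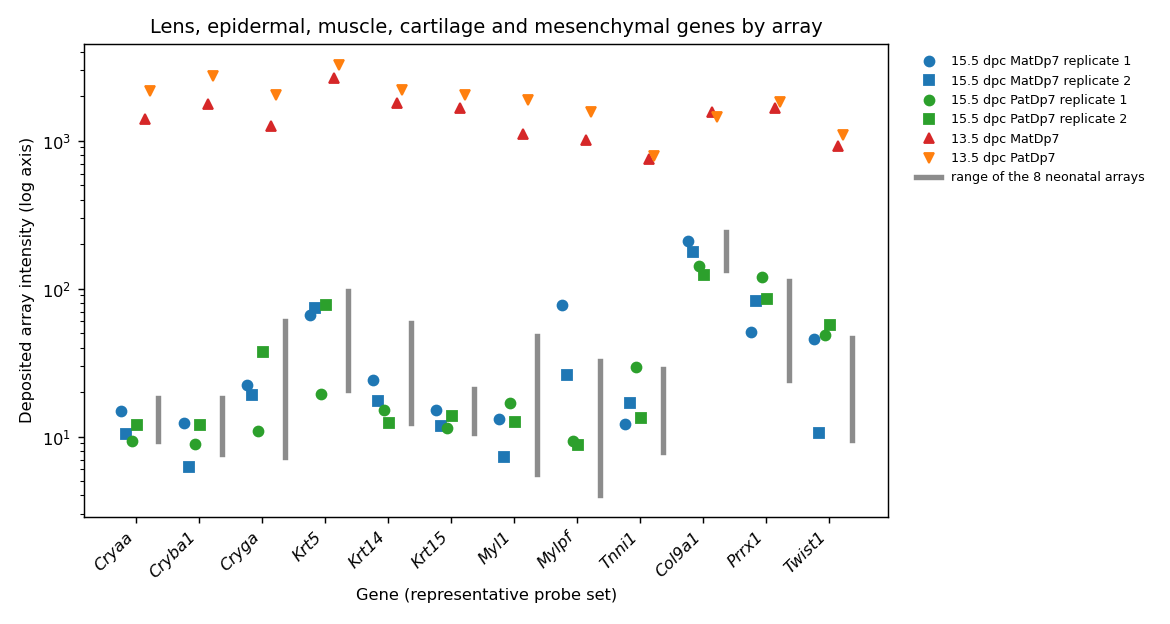
Deposited intensity (log axis) of 12 lens, epidermal, muscle, cartilage and mesenchymal genes on each embryonic array, with the range of the 8 neonatal arrays as a grey bar. Both 13.5 dpc arrays, drawn as triangles, lie above all 4 arrays of 15.5 dpc in each gene, by over 2 log2 units, and the 15.5 dpc points lie near the neonatal bars.

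Smooth muscle and pericyte genes were lower in 6 of 10 cases and higher in 2, with a median of -1.13. Acta2, the smooth muscle actin, was at 574.9 to 750.7 at 15.5 dpc and at 3317 and 3100 at 13.5 dpc. Myl9, a smooth muscle myosin light chain, was at 448.6 to 679.5 against 1522 and 2384, and Pdgfrb, the receptor that pericytes need to join vessels, was at 176.7 to 232.4 against 410.8 and 482.2. The call of Pdgfrb was lost without the PatDp7 array of 13.5 dpc, and the list then had 3 lower and 0 higher. Over the 6 lists of muscle, cartilage, epidermis, eye, meninges and pericytes together, 59 of 74 genes tested were called lower and 3 higher, beside 12.4% lower and 11.0% higher over all genes. Genes near the floor at 15.5 dpc passed the intensity filter through their 13.5 dpc values, so falls among those tested were partly built in. Without the filter, pericyte genes had 4 lower and 2 higher of 14, with a median of -0.438. Cartilage had 8 lower and 0 higher of 15, eye 7 and 2 of 15, and the mesenchymal list 25 and 0 of 28. Over all 12393 genes, 8.79% were then lower and 6.54% higher.

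Embryonic globins fell by factors that varied between samples. Hba-x, the embryonic zeta chain, was at 17330 in MatDp7 and 12670 in PatDp7 at 13.5 dpc. At 15.5 dpc it was at 209.9 and 645.0 in MatDp7 and at 443.6 and 1593 in PatDp7, a difference of -4.59 ± 0.54 (adjusted p = 0.0006626). Hbb-y, the embryonic epsilon-like beta chain, was at 12210 and 11700 at 13.5 dpc and at 445.5, 1688, 1192 and 3975 at 15.5 dpc, a difference of -3.06 ± 0.57 (adjusted p = 0.005592). Its call was lost without the MatDp7 array of 13.5 dpc. Hbb-bh1, the earliest embryonic beta chain, was at 2808 and 1663 at 13.5 dpc and at 11.2, 11.3, 80.3 and 104.1 at 15.5 dpc. The 15.5 dpc arrays kept 1 order in Hba-x and Hbb-y, with MatDp7 replicate 1 lowest, then PatDp7 replicate 1, MatDp7 replicate 2 and PatDp7 replicate 2. Both replicate 1 arrays, low in Xist, thus lay below both replicate 2 arrays in these 2 genes. In Hbb-bh1 the 2 PatDp7 arrays stood above the 2 MatDp7 arrays. Neonatal arrays were lower still, at 30.2 to 109.8 for Hba-x and 1.04 to 4.03 for Hbb-y.

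Promoters of Hba-x and Hbb-y are shown because the genes sit on different chromosomes and moved together. CACCC, a letter run recognised by erythroid KLF factors, is in capitals (GRCm38.p6, RefSeq, Hba-x chr11:32276420-32276619, plus strand; Hbb-y chr7:103853188-103853387, minus strand).
Hba-x: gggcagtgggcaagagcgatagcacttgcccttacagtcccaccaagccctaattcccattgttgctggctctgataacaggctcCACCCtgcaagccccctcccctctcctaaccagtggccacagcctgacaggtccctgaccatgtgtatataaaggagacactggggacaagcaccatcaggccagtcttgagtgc
Hbb-y: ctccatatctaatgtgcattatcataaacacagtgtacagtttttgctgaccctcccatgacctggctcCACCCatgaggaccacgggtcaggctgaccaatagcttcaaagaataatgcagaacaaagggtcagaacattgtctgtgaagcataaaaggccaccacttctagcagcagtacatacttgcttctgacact
CACCC is common: it was present on either strand in 56.7% of all promoters in windows of 300 bases, so its presence here singles out nothing.

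Adult chains were measured by 3 genes on probe sets that name 1 gene. Hbb-b2, an adult beta chain, was at 214.7 to 691.1 at 15.5 dpc and at 889.3 and 809.3 at 13.5 dpc, and was not called (-1.007 ± 0.34, adjusted p = 0.06462). Hba-a1 and Hba-a2 were under the intensity filter, at 44.9 to 135.7 and 69.4 to 101.4 on the 15.5 dpc arrays. At 13.5 dpc Hba-a1 was at 108.6 in MatDp7 and 51.1 in PatDp7, and Hba-a2 at 98.3 and 62.0, within or just below the 15.5 dpc ranges. Other adult globin probe sets match several globin genes and are not used here. Red cell genes outside the globin clusters fell in 6 of 12 cases tested, with 0 higher and a median of -0.70. Alas2, the erythroid enzyme that starts heme synthesis, was at 1639 to 2151 against 4493 and 3906. Kel, a blood group antigen, was at 105.0 to 164.9 against 362.1 and 380.5. Trim10, needed for terminal red cell maturation, was at 245.0 to 339.5 against 591.5 and 732.9, and Car2, the carbonic anhydrase of red cells and glia, was at 934.1 to 1140 against 1759 and 2133. The differences of Alas2 and Kel were near -1.2, much smaller than those of the embryonic globins. Alas2 and Kel lost their calls without the MatDp7 array of 13.5 dpc, and Car2 and Trim10 without the PatDp7 array, with 3 and 2 genes of the list left.

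**Figure D2:**
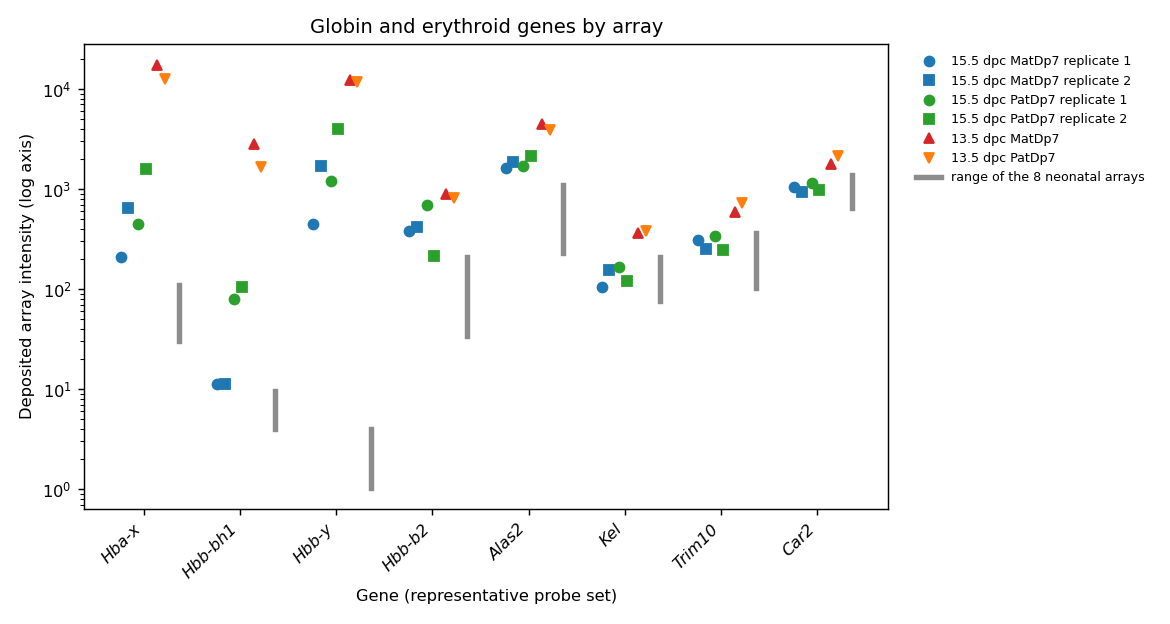
Deposited intensity (log axis) of globin and erythroid genes on each embryonic array, with the neonatal range as a grey bar. Both 13.5 dpc arrays lie above all 4 of 15.5 dpc in each gene. Hbb-y spreads from 445.5 to 3975 among the 15.5 dpc arrays, and Alas2, at the same age, from 1639 to 2151.

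Genes of DNA replication fell in 25 of 36 cases tested, with 0 higher and a median of -0.75. Mcm4 and Mcm5, subunits of the replicative helicase, were at 514.1 to 741.9 and 405.3 to 581.0 at 15.5 dpc. At 13.5 dpc Mcm4 was at 1512 and 1785 and Mcm5 at 1086 and 1370. Cdt1, the factor that loads the helicase, was at 540.0, 422.7, 417.9 and 477.1 against 1313 and 1173, a difference of -1.33 ± 0.16. Ccne1, the cyclin of the G1 to S transition, was at 87.5 to 127.0 against 349.4 and 448.7, a difference of -1.48 ± 0.16. All 40 tested genes of mitosis had negative differences in both genotypes, and 32 of them were called lower, with a median of -0.85. Ube2c, the ubiquitin-conjugating enzyme of the anaphase-promoting complex, was at 1177, 866.5, 1115 and 1116 against 2636 and 2553. Anln, the contractile ring protein anillin, was at 131.4 to 214.4 against 539.6 and 544.4. Ccnb2, a mitotic cyclin, was at 433.4 to 532.1 against 1034 and 1144, and Aurka, a spindle kinase, was at 283.9 to 413.9 against 792.1 and 830.6. Cdk1, the mitotic kinase, went from 2053 and 2336 to between 983.2 and 1473, Top2a, the topoisomerase of dividing cells, from 2252 and 2435 to between 976.2 and 1376, and the proliferation marker Mki67 from 1169 and 1291 to between 529.9 and 800.5. Log2 differences ran from -1.48 to -0.06 over the replication list and from -1.45 to -0.12 over the mitosis list. The ages did not overlap in any of the genes named here, most of which were picked for a small p on these arrays. Neonatal arrays were lower again for Ccnb2, at 88.4 to 218.7, and for Mcm4, at 239.2 to 320.4. Calls here rested on both 13.5 dpc arrays. Without the MatDp7 array 10 replication and 4 mitosis genes were called, and without the PatDp7 array 4 and 7, with Cdk1, Top2a and Mki67 lost in each case and Aurka without the PatDp7 array.

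Promoters of 4 mitosis genes are printed because 32 of the 40 tested genes of the list were called lower. Such promoters are also known for paired CCAAT boxes, bound by NF-Y, and for the cell-cycle element TTTGAA. Both motifs and their reverse complements are in capitals (GRCm38.p6, RefSeq, Ccnb2 chr9:70421535-70421734, minus strand; Cdk1 chr10:69352893-69353092, minus strand; Ube2c chr2:164769749-164769948, plus strand; Top2a chr11:99024170-99024369, minus strand).
Ccnb2: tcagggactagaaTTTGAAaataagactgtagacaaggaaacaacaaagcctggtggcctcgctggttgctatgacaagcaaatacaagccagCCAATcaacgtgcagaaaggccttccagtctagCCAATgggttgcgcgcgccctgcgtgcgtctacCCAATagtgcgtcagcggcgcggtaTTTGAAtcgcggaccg
Cdk1: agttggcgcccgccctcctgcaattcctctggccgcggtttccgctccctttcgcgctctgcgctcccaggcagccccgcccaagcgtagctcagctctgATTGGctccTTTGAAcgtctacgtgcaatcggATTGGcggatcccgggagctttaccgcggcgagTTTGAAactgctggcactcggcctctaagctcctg
Ube2c: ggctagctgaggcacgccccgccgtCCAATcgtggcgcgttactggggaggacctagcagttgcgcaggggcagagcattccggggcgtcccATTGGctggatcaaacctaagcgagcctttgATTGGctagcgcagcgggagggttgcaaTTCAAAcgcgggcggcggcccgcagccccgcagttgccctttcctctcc
Top2a: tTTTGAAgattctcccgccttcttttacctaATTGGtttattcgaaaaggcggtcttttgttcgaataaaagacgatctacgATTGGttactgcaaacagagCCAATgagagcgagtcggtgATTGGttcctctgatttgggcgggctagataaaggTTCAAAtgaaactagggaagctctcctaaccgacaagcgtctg
Of 34 tested mitosis genes with a promoter in the table, 27 held TTTGAA on either strand (79.4%) and 26 held CCAAT (76.5%), in windows of 300 bases. Over the 6688 tested genes with a promoter, 11.5% held TTTGAA and 38.9% held CCAAT. Replication genes held TTTGAA in 5 of 32 promoters (15.6%) and CCAAT in 19 (59.4%). The stretches above hold 2 TTTGAA matches each in Ccnb2, Cdk1 and Top2a and 1 in Ube2c. The matches describe letters in the window and measure no binding.

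Genes of radial glia were called in both directions, 8 higher and 4 lower of 26 tested, with a median of 0.40. Over all genes tested, 11.0% were higher and 12.4% lower. Sox2, a transcription factor that maintains neural progenitors, was at 1451, 1214, 1191 and 1235 at 15.5 dpc and at 573.4 and 586.3 at 13.5 dpc, a difference of 1.07 ± 0.15 (adjusted p = 0.001482). Fabp7, the lipid-binding protein of radial glia, rose from 4460 and 4642 to between 7632 and 11360. Otx2, a homeobox gene of forebrain, midbrain and choroid plexus, rose from 251.1 and 210.7 to between 536.7 and 780.0. The Id inhibitors of basic helix-loop-helix factors divided. Id4 rose from 2308 and 1735 to between 3214 and 3943, while Id1 fell from 1322 and 1227 to between 574.9 and 785.6, and Id3 from 1492 and 1532 to between 628.9 and 1011. The Notch effectors divided too. Hes1 fell, at 319.9, 235.8, 287.5 and 460.7 against 617.0 and 731.6, and Hes5 rose, at 418.6, 268.9, 473.9 and 442.0 against 245.2 and 145.1. The Hes5 call had an adjusted p of 0.03544 and was lost when several single arrays were left out, and its second probe set was not called. Pax6, the homeobox gene of cortical radial glia, was at 488.9 to 548.2 against 416.4 and 366.7 and was not called (0.37 ± 0.15). The list had 1 higher and 1 lower gene without the PatDp7 array of 13.5 dpc, where Fabp7, Otx2 and Id4 lost their calls, and 6 and 1 without the MatDp7 array. Hes1, Id1 and Id3 were lost in each case.

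Hmga2, a chromatin protein of early progenitors that declines with age, had the largest difference in the progenitor list. It was at 188.8, 171.1, 212.3 and 359.7 at 15.5 dpc and at 3323 and 2531 at 13.5 dpc, a difference of -3.42 ± 0.25 (adjusted p = 5.991e-05). All 3 of its probe sets were called lower. Hmga2 is made by embryonic mesenchyme as well as by neural progenitors, and the mesenchymal sum moved with it. Genes known to decline over fetal life or to be reactivated in tumours fell in 9 of 11 cases, with 0 higher and a median of -0.94. Igf2bp3, an RNA-binding protein of fetal tissue, was at 576.5 to 737.4 against 1273 and 1461, and Igf2bp1 at 96.3 to 163.2 against 427.2 and 192.5. Dlk1, a Notch-like membrane protein of fetal mesenchyme and muscle, was at 1394, 2728, 2012 and 3006 against 8601 and 8457, a difference of -1.94 ± 0.27. Its replicate 2 arrays were above its replicate 1 arrays in each genotype. With the MatDp7 array of 13.5 dpc left out 5 genes of this list were called, and with all 14 arrays 2.

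Genes of new neurons rose together. Of 28 genes of early neurons and growth cones, all tested, 22 rose and 0 fell, with a median of 1.19. Tubb3, the neuronal beta tubulin, was at 4617, 5679, 4641 and 4209 at 15.5 dpc and at 1985 and 1179 at 13.5 dpc, a difference of 1.60 ± 0.17 (adjusted p = 0.0003578). Mapt, the axonal protein tau, was at 4157, 5636, 4473 and 3988 against 1439 and 1162, a difference of 1.77 ± 0.16. Dcx, the doublecortin of migrating neurons, was at 3567 to 3755 against 1922 and 1214, with 3 of its 4 probe sets called. Stmn3, a tubulin-binding phosphoprotein, was at 7505 to 8707 against 3116 and 2527. Elavl3, a neuronal RNA-binding protein, was at 2938 to 3738 against 1190 and 974.4, and Rtn1, a neuronal reticulon, at 9093 to 11190 against 4167 and 3414. The 4 arrays of 15.5 dpc lay close together in these genes, above both of 13.5 dpc. The MatDp7 array of 13.5 dpc was above the PatDp7 array in each of the 6. Calls numbered 11 without the PatDp7 array of 13.5 dpc and 16 without the MatDp7 array.

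Synaptic vesicle genes followed, with 19 of 24 higher, 0 lower and a median of 1.0. Snap25, a membrane protein of the vesicle fusion complex, was at 1305, 1744, 1720 and 1095 at 15.5 dpc and at 360.6 and 349.5 at 13.5 dpc, a difference of 1.88 ± 0.21. Syp, the vesicle protein synaptophysin, was at 906.9 to 1602 against 462.3 and 373.4. Syt4, a synaptotagmin, was at 1108 to 1847 against 553.6 and 404.5, Amph, an endocytic adaptor, at 872.9 to 1127 against 375.4 and 328.1, and Snap91, a clathrin assembly protein, at 1735 to 2875 against 918.9 and 553.5. Leaving out the PatDp7 array of 13.5 dpc left 3 of these 24 genes called, Syp and Snap91 not among them, and leaving out the MatDp7 array left 14. A pooled spread of 14 arrays gave 7 for synaptic and 9 for early neuronal genes, and no setting called any lower.

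The 15 genes with the largest rises were Rab3b, Mmd2, Neurod6, Ptgds, Pcp4, Cdr2l, Olig1, Sst, Gad1, Hcn3, Parp6, Scg3, Scg5, Mapk8ip2 and Snap25. Rab3b, a vesicle GTPase, was at 478.6, 756.5, 405.7 and 443.2 at 15.5 dpc and at 29.6 and 34.0 at 13.5 dpc, under the added constant, so that its difference of 2.76 ± 0.22 understates the ratio. Scg3 and Scg5, granin-family proteins of secretory granules, were at 1681 to 2530 and 1581 to 2319 against 391.8 to 597.3 and 438.8 to 444.3. Mapk8ip2, a scaffold of JNK signalling in neurons, was at 1554 to 2621 against 589.7 and 430.4. Pcp4, a calmodulin-binding protein of Purkinje and other neurons, was at 2087 to 2631 against 615.1 and 483.0, a difference of 2.06 ± 0.15. Hcn3, a pacemaker channel, was at 393.2 to 719.1 against 178.0 and 39.96, and the 13.5 dpc arrays thus differed from each other as well. Its call was lost without the PatDp7 array of 13.5 dpc. Parp6, an ADP-ribosyltransferase that acts in dendrites, was at 783.7 to 1215 against 210.2 and 219.9. Cdr2l, a paralogue of the cerebellar degeneration antigen, was at 273.8 to 655.7 against 48.3 and 77.1, and its call was lost without the MatDp7 array of 13.5 dpc. Mmd2, a membrane protein, was at 1206 to 1538 against 204.3 and 275.5. None of these genes overlapped between ages, which largely follows from their choice as the largest called rises.

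Cell types divided as follows within the neuronal lineage. Proneural and intermediate progenitor genes rose in 5 of 15 cases, with 0 lower. Insm1, a zinc finger factor of newly committed cells, rose from 376.0 and 208.5 to between 653.4 and 924.5. Neurod1 rose from 376.6 and 292.6 to between 659.7 and 1158, Elavl4 from 698.6 and 503.6 to between 955.6 and 2197, and Hes6, an inhibitor of Hes1, from 664.3 and 643.8 to between 916.3 and 1163. Eomes, the factor of cortical intermediate progenitors, was at 534.0 to 680.7 against 515.8 and 275.6 and was not called. In limma 0 genes of this list were called without the PatDp7 array of 13.5 dpc and 2 without the MatDp7 array.

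Cortical excitatory genes rose in 8 of 20 cases, with 0 lower and a median of 0.49. Neurod6, a factor of cortical pyramidal neurons, had the third largest rise of all genes, at 1965, 826.4, 1375 and 1084 against 327.9 and 186.8 (2.12 ± 0.31, adjusted p = 0.001748). Neurod2, its paralogue, was at 1552, 778.7, 1324 and 1565 against 447.9 and 283.3, and Zbtb18, a repressor needed in cortical neurons, at 2241 to 3319 against 942.3 and 873.7. In all 3 genes 15.5 dpc MatDp7 replicate 2 was the lowest of its age. Neurod6 and Neurod2 lost their calls without the PatDp7 array of 13.5 dpc, where 1 gene of the list was called, against 3 without the MatDp7 array. Interneuron and striatal genes rose in 8 of 18 cases and fell in 1. Gad1, the enzyme that makes GABA, was at 1050, 1386, 1274 and 722.8 against 276.7 and 205.9, a difference of 1.96 ± 0.23. Sst, the neuropeptide somatostatin, was at 2015, 2802, 2307 and 1607 against 612.5 and 392.5, and Slc32a1, the vesicular GABA transporter, at 410.7 to 712.2 against 193.7 and 120.9. Npy, another interneuron peptide, was at 1560, 1566, 1529 and 877.2 against 666.3 and 378.4. For Gad1, Sst, Slc32a1 and Npy, PatDp7 replicate 2 was the lowest 15.5 dpc array, whereas MatDp7 replicate 2 was the lowest for Neurod6 and Neurod2. The gene that fell was Penk, the precursor of enkephalin, which is made by striatal neurons and by embryonic mesenchyme. It was at 773.5 and 601.7 in MatDp7 and 329.7 and 322.6 in PatDp7 at 15.5 dpc, and at 1191 and 1616 at 13.5 dpc. Slc32a1, Npy and Penk lost their calls without the PatDp7 array of 13.5 dpc, which left 2 genes of this list higher and 0 lower. Leaving out the MatDp7 array left 4 higher and 1 lower.

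Cajal-Retzius genes rose in 3 of 8 cases, among them Reln, the layering signal, from 952.4 and 668.3 to between 1813 and 2917, and Calb2, the calcium-binding protein calretinin, from 493.8 and 465.2 to between 1474 and 2396. Regional identity genes of diencephalon, midbrain and hindbrain had no common direction, with 4 higher, 3 lower and a median of -0.01 over 18. The shares over all genes tested were 11.0% higher and 12.4% lower. Zic4 and Barhl1, cerebellar and dorsal neural tube factors, rose to 802.5 to 1015 from 484.5 and 267.9, and to 466.9 to 722.2 from 251.6 and 229.7. Lhx9 rose from 269.6 and 191.0 to between 454.1 and 844.8. A second probe set was not called for Zic4 nor for Lhx9. Irx5, a hindbrain and retinal factor, fell from 709.9 and 675.8 to between 261.4 and 407.0. In limma 0 regional genes were called in either direction without the PatDp7 array of 13.5 dpc, and 1 higher and 0 lower without the MatDp7 array. Reln also lost its call without the PatDp7 array.

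**Figure D3:**
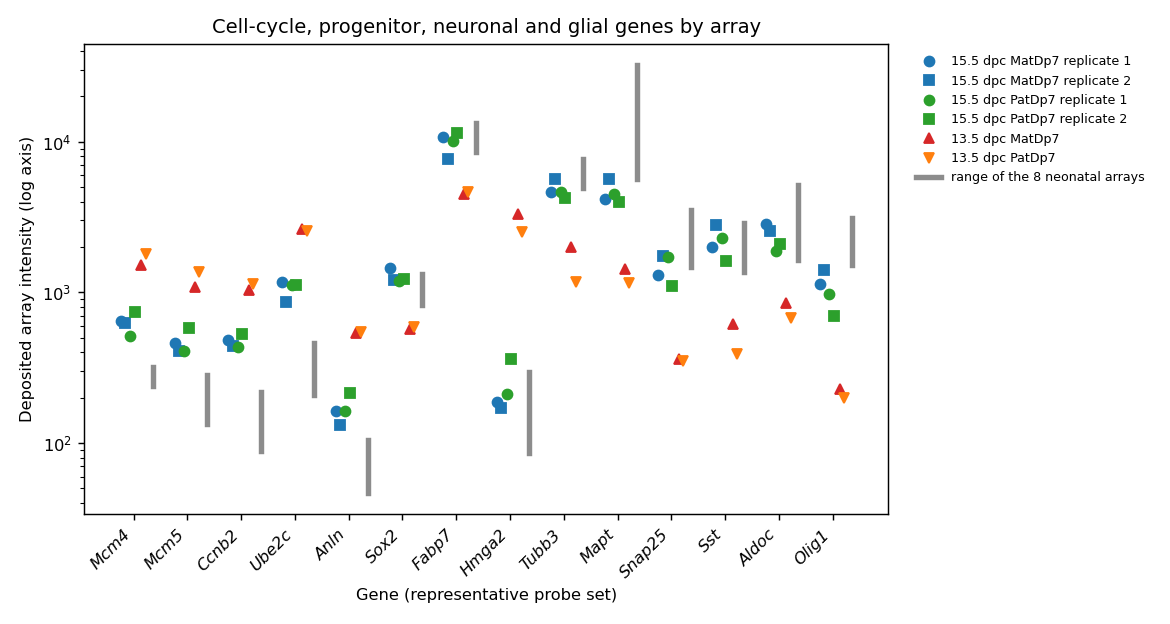
Deposited intensity (log axis) of replication and mitosis genes (Mcm4 to Anln), progenitor genes (Sox2, Fabp7, Hmga2), neuronal genes (Tubb3 to Sst) and glial genes (Aldoc, Olig1) on each embryonic array, with the neonatal range as a grey bar. The 15.5 dpc points lie under both 13.5 dpc triangles for the cell-cycle genes and Hmga2 and above both for the other genes drawn.

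Astrocyte genes rose in 11 of 19 cases, with 0 lower and a median of 0.92. Aldoc, the brain aldolase, was at 2856, 2535, 1892 and 2098 at 15.5 dpc and at 847.2 and 678.2 at 13.5 dpc, a difference of 1.55 ± 0.14 (adjusted p = 0.0002104). Mt3, the brain metallothionein, was at 1679 to 2514 against 527.9 and 517.6, Aldh1l1, a folate enzyme of astrocytes, at 786.4 to 1243 against 371.6 and 229.9, and Atp1b2, an adhesion subunit of the sodium pump, at 1115 to 1620 against 343.3 and 337.6. Radial glia express several of these genes as well. The count was 7 without the PatDp7 array of 13.5 dpc and 6 with 14 arrays. In the oligodendrocyte lineage 3 of 10 genes rose and 1 fell, beside 11.0% higher and 12.4% lower over all genes tested. Olig1, a lineage factor, was at 1130, 1408, 970.4 and 695.1 against 228.9 and 198.9, a difference of 2.02 ± 0.19 (adjusted p = 0.0002572). Ptprz1, a receptor phosphatase of progenitors, rose from 428.2 and 314.2 to between 699.2 and 919.7. Pdgfra, which marks oligodendrocyte precursors and also mesenchyme, fell from 1363 and 1318 to between 395.1 and 544.1, and Sox10, which marks the oligodendrocyte lineage and neural crest, was at 301.2 to 377.7 against 414.1 and 337.9 and was not called. Nkx2-2, the third gene that rose, had an adjusted p of 0.04991 and lost its call under several settings. Of the rises in this list, 1 was left without the PatDp7 array of 13.5 dpc, where Ptprz1 lost its call.

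Vascular and immune genes were mixed. Endothelial genes rose in 3 of 18 cases and fell in 4, beside 11.0% higher and 12.4% lower over all genes tested. Slco1c1, the thyroid hormone transporter of the blood-brain barrier, rose from 184.7 and 107.3 to between 458.7 and 523.7, a difference of 1.501 ± 0.18. Cldn5, the tight junction protein, rose from 901.9 and 1020 to between 1161 and 1783 with an adjusted p of 0.03712, and lost its call when any of several single arrays was left out. Spock2, a matrix proteoglycan, rose from 785.4 and 617.6 to between 1269 and 2989. Emcn, a sialomucin of capillary and venous endothelium, fell from 545.2 and 627.5 to between 171.7 and 263.7, and Itm2a, a membrane protein of vessels, cartilage and muscle, from 7148 and 6307 to between 2534 and 3161. Without either 13.5 dpc array 1 endothelial gene was higher and 2 were lower, and Spock2 was not called. Microglial and macrophage genes were lower in 2 of 16 cases, which is about the 12.4% lower of all genes tested. The 2 were Ly86, at 195.2 to 233.2 against 449.2 and 418.8, and Lyz2, the macrophage lysozyme, at 305.0 to 424.0 against 540.8 and 910.8. The limma call of Lyz2 was lost without the PatDp7 array of 13.5 dpc and that of Ly86 without either, which left 0 and 1 of the list. Choroid plexus genes divided, with 4 higher and 3 lower of 9, beside 11.0% higher and 12.4% lower over all genes tested. Kcne2, a potassium channel subunit of choroid epithelium, was at 795.1, 395.8, 528.5 and 626.9 against 136.8 and 152.2, a difference of 1.67 ± 0.24. Folr1, the folate receptor, rose from 311.1 and 222.4 to between 494.1 and 903.9, and Ttr, the thyroid hormone carrier of choroid epithelium, from 10590 and 7908 to between 13460 and 17390. Aqp1, a water channel of choroid epithelium, vessels and red cells, fell from 832.5 and 847.0 to between 385.9 and 659.5, with an adjusted p of 0.04151. Choroid genes were 1 higher and 0 lower without the PatDp7 array of 13.5 dpc and 2 and 0 without the MatDp7 array, and Folr1, Ttr and Aqp1 were lost in each case.

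Ptgds, the prostaglandin D synthase of meninges and choroid plexus, rose against the direction of the meningeal list. It was at 5757, 5077, 6956 and 5743 at 15.5 dpc and at 1358 and 1366 at 13.5 dpc, a difference of 2.06 ± 0.15 (adjusted p = 5.643e-05). Both of its probe sets were called higher. Its call was lost when the neonatal arrays entered the spread, with or without a block for their replicate numbers.

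Among signalling pathways, 9 of 26 Wnt pathway genes fell, 1 rose and 16 were not called, with a median of -0.25. Sfrp2, a secreted Wnt modulator, was at 730.1, 747.9, 558.8 and 715.7 at 15.5 dpc and at 4728 and 4605 at 13.5 dpc, a difference of -2.68 ± 0.15. Dkk2, a secreted ligand of Wnt co-receptors, was at 40.5 to 85.9 against 872.4 and 995.6. Fzd2, a Wnt receptor, fell from 2917 and 2661 to between 481.6 and 819.7, and Tcf7l1, a transcriptional repressor at Wnt targets, from 662.3 and 704.2 to between 154.5 and 265.8. The ligand that rose was Wnt7a, needed for brain vessels, from 249.3 and 122.1 to between 355.3 and 414.1. Wnt genes were 5 lower and 0 higher without the PatDp7 array of 13.5 dpc, where Wnt7a lost its call, and 6 and 1 without the MatDp7 array. Hedgehog pathway genes fell in 5 of 9 cases, with 0 higher. Gas1, a hedgehog co-receptor, was at 828.2, 560.0, 333.1 and 1125 against 3068 and 3413. The transcription factors Gli1 and Gli2 fell from 417.6 and 265.7 to between 111.3 and 176.9 and from 517.0 and 391.6 to between 149.9 and 261.0. For hedgehog genes limma called 0 without the MatDp7 array of 13.5 dpc and 2 without the PatDp7 array. Sfrp2, Dkk2 and Gas1 are also genes of mesenchyme, whose summed level fell with them. Notch pathway genes had 3 higher and 2 lower of 18 and a median of -0.12. These counts are near the 11.0% higher and 12.4% lower of all genes tested. Dtx1, a Notch-binding ubiquitin ligase, rose from 795.4 and 609.3 to between 1309 and 1905. Of Notch genes limma called 0 without the PatDp7 array of 13.5 dpc, and 1 higher and 0 lower without the MatDp7 array.

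Imprinted genes outside proximal chromosome 7 fell in 10 of 25 cases and rose in 3, beside 12.4% and 11.0% of all genes. Mest, a paternally expressed gene of mesoderm, was at 2587, 2793, 2951 and 3081 at 15.5 dpc and at 6910 and 7514 at 13.5 dpc, a difference of -1.32 ± 0.13. Cdkn1c, a cyclin-dependent kinase inhibitor, was at 3236 to 4379 against 9463 and 9328. Igf2, the fetal growth factor, was at 5170 to 5931 against 11250 and 9920. Dcn, the matrix proteoglycan decorin, was at 1414 to 2306 against 4623 and 5346, and Slc38a4, an amino acid transporter, at 33.9 to 61.2 against 491.8 and 532.0. Several of these genes, Igf2, Mest and Dcn among them, are strong in mesenchyme and meninges. In these imprinted genes the genotypes lay close together at each age. With the MatDp7 array of 13.5 dpc left out 7 were lower and 0 higher, and without the PatDp7 array 7 and 1.

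**Figure D4:**
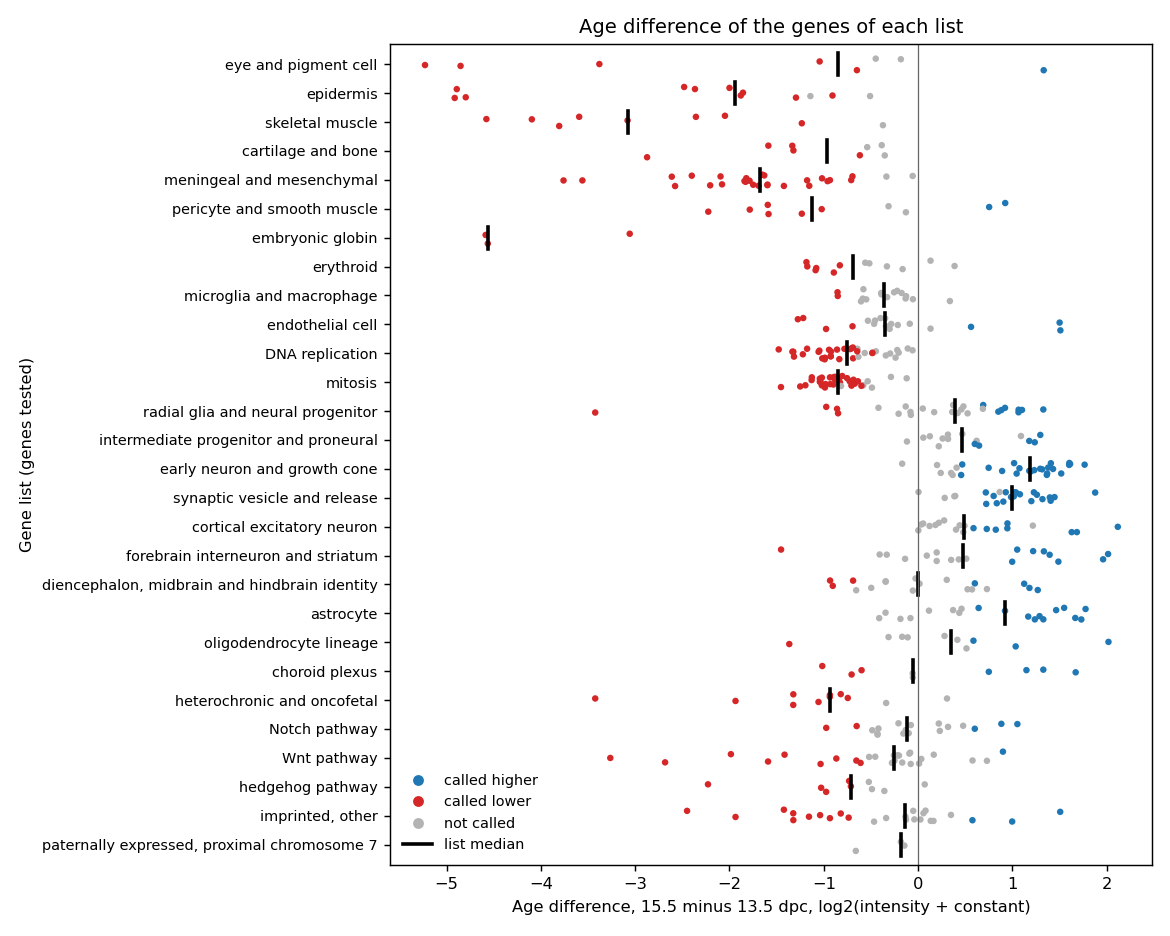
Age difference on the scale of log2(intensity + constant) for the tested genes of 28 lists, 1 point per gene, coloured by call, with a black bar at the list median. Muscle, epidermal, mesenchymal and embryonic globin lists lie to the left, cell-cycle lists between -1.5 and 0, and the neuronal, synaptic and astrocyte lists mainly to the right.

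Within MatDp7, 15.5 dpc replicates against the single 13.5 dpc array gave 309 probe sets higher (2.28%) and 525 lower (3.87%), together 6.14% of 13576. Of genes, 186 were higher (2.26%) and 371 lower (4.51%), together 6.78%. Within PatDp7 the numbers were 436 probe sets higher (3.21%) and 549 lower (4.04%), together 7.26%, with 270 genes higher (3.29%) and 375 lower (4.56%), together 7.85%. These probe set counts rested on single arrays: without 15.5 dpc MatDp7 replicate 1 they were 2213 and 2055. The PatDp7 count was 2061 without MatDp7 replicate 2, 509 without PatDp7 replicate 1 and 623 without PatDp7 replicate 2 of 15.5 dpc. A block for the replicate number of the 15.5 dpc arrays raised them to 1651 and 1771. All 1017 genes called lower in the joint fit were lower in both genotypes, and all 902 called higher were higher in both. The joint calls came from these same arrays, so this shared direction largely follows from them and adds no support. Across the 8219 genes tested, the age differences of the genotypes correlated with r = 0.835 and rho = 0.729, and 6173 genes (75.1%) had the same sign. This correlation is across genes, which are not independent replicates, and no array is shared between its axes. Within each genotype Cryba1 differed by -4.94 and -5.52, Krt14 by -4.70 and -5.13, Tnni1 by -3.63 and -3.56 and Actc1 by -3.79 and -3.82 in MatDp7 and PatDp7. Muscle had 7 genes lower in each genotype, epidermis 8 and 10 and the mesenchymal list 25 and 19. Early neuronal genes were higher in 11 cases in MatDp7 and 16 in PatDp7, synaptic genes in 3 and 14, replication genes were lower in 4 and 10, and mitosis genes in 7 and 4. The non-neural signal at 13.5 dpc was thus seen in both embryo samples, and the medians of these lists had the same sign in both genotypes.

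**Figure D5:**
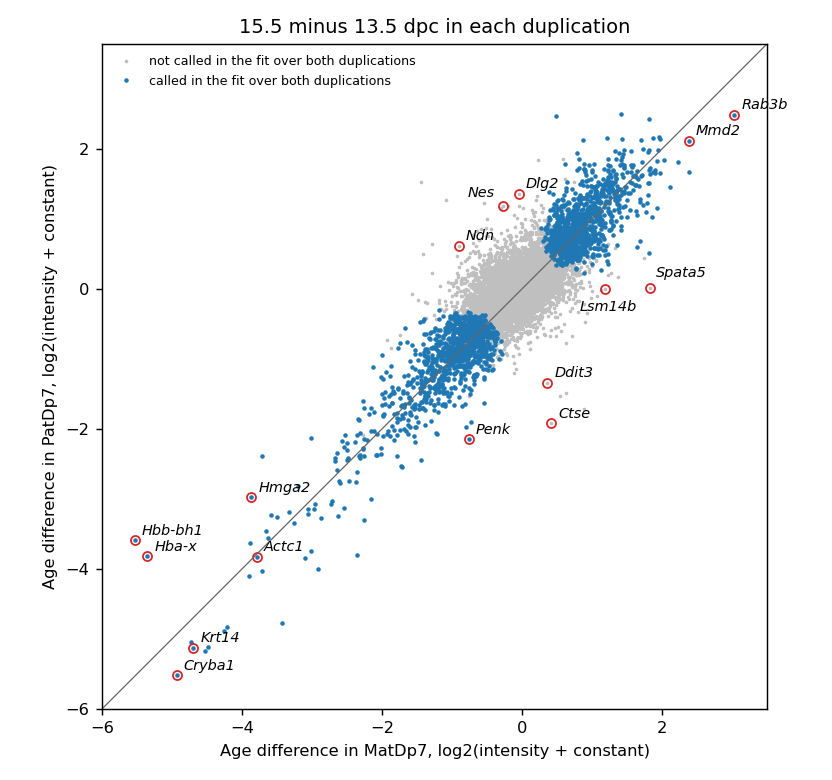
Age difference in PatDp7 against that in MatDp7 for the 8219 genes tested, with the line of equal difference and genes named in the text circled. Most called genes lie along the line, embryonic globins lie above it at the lower left, and Ndn, Nes, Ctse and Ddit3 lie in quadrants of opposite sign.

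The difference of the age difference between genotypes was tested as an interaction in limma. No probe set was called, 0 of 13576, while 408 probe sets and 201 of 8219 genes had an unadjusted p under 0.05. The 5 genes with the smallest p in each direction are given as values. Hbb-bh1 differed by -5.53 in MatDp7 and -3.59 in PatDp7, the difference of 1.94 ± 0.33 having an adjusted p of 0.9626. Nes, the radial glial filament nestin, was at 1417 and 1476 in MatDp7 and 2122 and 2403 in PatDp7 at 15.5 dpc, and at 1752 in MatDp7 and 964.0 in PatDp7 at 13.5 dpc. Dlg2, a synaptic scaffold, was at 179.1 and 202.6 and at 298.6 and 279.5 at 15.5 dpc, and at 198.3 and 81.9 at 13.5 dpc. Cd209f, a lectin, was at 177.3 to 205.1 at 15.5 dpc and at 243.5 and 64.1 at 13.5 dpc. In the other direction, Spata5, an AAA ATPase, was at 565.6 to 683.4 on the 15.5 dpc arrays and 591.7 on the PatDp7 array of 13.5 dpc, and at 138.5 on the MatDp7 array. Ctse, the protease cathepsin E of erythroid and epithelial cells, was at 197.3 to 463.6 at 15.5 dpc and at 253.2 in MatDp7 and 1049 in PatDp7 at 13.5 dpc. Lsm14b, an RNA-binding protein, was at 504.2 and 829.9 at 13.5 dpc and at 792.2 to 1323 at 15.5 dpc. Ddit3, a stress-response factor, was at 234.8 and 219.4 in MatDp7 and 49.8 and 115.0 in PatDp7 at 15.5 dpc, and at 166.2 and 276.0 at 13.5 dpc. Penk differed by -0.76 in MatDp7 and -2.15 in PatDp7. In Spata5, Ctse, Cd209f and Dlg2 1 array of 13.5 dpc lay outside the range of the other 5 arrays by a wide gap. In Hbb-bh1, Nes, Dlg2, Ddit3 and Penk the genotypes also differed at 15.5 dpc.

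Paternally expressed genes of proximal chromosome 7 are carried by the genotypes from different parents. Of 7 such genes on the array, 3 were tested, and the joint fit called 0 of them for age. That fit averages 2 genotypes that differ strongly in these genes. Ndn, the growth suppressor necdin, was at 83.9 and 68.0 in MatDp7 and at 12610 and 12190 in PatDp7 at 15.5 dpc, and at 186.1 and 8073 at 13.5 dpc. Its age difference was -0.91 ± 0.22 in MatDp7 (adjusted p = 0.0594), where the intensity was low throughout, and 0.62 ± 0.22 in PatDp7 (adjusted p = 0.1598). The interaction had an unadjusted p of 0.001636 and an adjusted p of 0.9997. Magel2, a neighbour of Ndn that regulates ubiquitination, was at 494.3 and 511.4 in PatDp7 at 15.5 dpc and at 433.6 at 13.5 dpc. Peg3, a zinc finger protein, was at 2387 and 1813 in PatDp7 at 15.5 dpc and at 4859 at 13.5 dpc, a difference of -1.20 ± 0.26 that was called within PatDp7 (adjusted p = 0.03483). In MatDp7 Peg3 was at 136.2 and 116.4 and at 140.9. The joint fit gave Peg3 -0.66 ± 0.25, not called (adjusted p = 0.09092).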

How the data were processed

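RNA of 6 embryonic brain samples was measured on Affymetrix 430A arrays. The deposited values are linear intensity. The submitters' processing notes name MAS5 without a version. Their scaling target is not given in the sources used here. The 2% trimmed mean of every array was 500.13 to 500.15, so no further scaling was applied. From the deposited intensity, log2(value + 50.442) was computed, the constant being the 20th percentile over these 6 arrays. Probe sets whose mean over the ages was under the 40th percentile were left out, which kept 13576. The fit in limma 3.58.1 (R 4.3.3) had age and genotype as terms, an intensity trend, 3 residual and 5.93 prior degrees of freedom, and a Benjamini-Hochberg threshold of 0.05. Differences within a genotype and the interaction came from 4 group means with 2 residual degrees of freedom, where the lone 13.5 dpc arrays are assumed to vary like the 15.5 dpc ones. The neonatal arrays were kept out of the reported fit, and fits with them are given as alternatives. The number of arrays limits the precision.

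Of 22626 probe sets that are not controls, 20380 name 1 gene in the platform annotation, 691 several and 1555 none. A gene's probe set with the highest mean represents it. Named are the 15 called genes with the largest difference in each direction, up to 4 of each list with the smallest p beside its defining members, the 5 genes with the smallest interaction p in each direction, and the globins. The comparison, the 48 gene lists and the motifs were chosen with earlier results of these data known. No table of detection calls was used here.

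Replicate numbers of the 15.5 dpc arrays were checked for pairing: the deviations of MatDp7 and PatDp7 samples of a number correlated at 0.243 over 13576 probe sets, but 2 numbers do not establish pairs, so no block was used in the reported fit. On simulated data with 50 probe sets changed per size, the age test recovered 6% at a log2 change of 0.5, 80% at 1 and 100% at 2 and at 4, with 13 false calls among 156. Plots used matplotlib 3.10.9 under Python 3.11.15.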

Additional observations from a re-analysis of the deposited data

Results flagged for a closer look

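In 9 of the 144 named genes, 1 of the 4 arrays of 15.5 dpc lay far from the other 3 by Dixon's criterion, which chance alone gives in about 1 of 20 groups. Sox2 was highest in MatDp7 replicate 1, at 1451 against 1191 to 1235 on the others, and Mt3 was highest there too, at 2514 against 1679 to 1800. Slc38a4 was lowest on that array, at 33.9 against 56.9 to 61.2. MatDp7 replicate 2 was highest for Snap91, at 2875 against 1735 to 1922, and for Atp1b2, at 1620 against 1115 to 1190. PatDp7 replicate 1 was highest for Scg5, at 2319 against 1581 to 1693, and lowest for Sfrp2, at 558.8 against 715.7 to 747.9. PatDp7 replicate 2 was lowest for Npy, at 877.2 against 1529 to 1566, and highest for Dkk2, at 85.9 against 40.5 to 45.5.

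In 5 named genes that were flagged, the age difference ran in opposite directions in the genotypes, on all arrays. They are not all the named genes with opposite signs. Magel2, which was not flagged, differed by -0.56 in MatDp7 and 0.19 in PatDp7. All 5 flagged genes were among those named for the smallest interaction p, so opposite directions follow in part from how they were picked. Over all 8219 genes tested, 6173 (75.1%) had the same sign in both genotypes. The difference between genotypes, PatDp7 minus MatDp7, was 1.52 for Ndn, 1.45 for Nes, 1.46 for Cd209f, -2.34 for Ctse and -1.70 for Ddit3, on the log2 scale. The interaction test in limma called none of the 5 (adjusted p = 0.9997 for each of Ndn, Nes, Cd209f, Ctse and Ddit3), and each rests on 1 array of 13.5 dpc per genotype.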

How the results depend on the processing

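The main limit is that the 13.5 dpc side has 1 array per genotype and carries non-neural transcripts. For 15.5 minus 13.5 dpc, leaving out each array in turn gave 816 to 3308 probe sets against 2940, and the pooled spread of all 14 arrays gave 938. With the replicate block of the 15.5 dpc arrays it was 3526. In MatDp7 (834) the count was 453 with no filter on low values, 134 with all 14 arrays, 1341 with all 14 and a neonatal replicate block, 1651 with the 15.5 dpc replicate block, and 801 to 2213 with arrays left out. In PatDp7 (985) the same settings gave 623, 158, 1485, 1771 and 509 to 2061. The interaction (0) had 1 probe set with the neonatal block and 0 to 17 with arrays left out, 17 of them without 15.5 dpc MatDp7 replicate 1. Median scaling gave 1949 higher and 1128 lower, quantile normalization 1605 and 1456. Another constant, a stricter filter, no variance trend, no genotype term and group means kept the joint count within 1.5 times. Of 132 named genes called, 85 stayed called with all 14 arrays, 98 without 13.5 dpc MatDp7 and 85 without 13.5 dpc PatDp7, and at least 125 of those with a value did in each of the other fits, except 100 of the 100 still measured under the stricter filter. None changed direction. The causes were not tested. Low intensity limits genes under the added constant.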

Other observations

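Further gene lists, each given as counts of genes called in limma at 15.5 against 13.5 dpc, beside 11.0% higher and 12.4% lower over all genes. Receptors and channels of neurons were called only upward: 2 of 4 glutamate receptor genes, 4 of 5 GABA and glycine receptor genes and 6 of 16 ion channel genes. Hypothalamic neuropeptide genes were higher in 5 of 11 cases and olfactory epithelium genes in 2 of 3, both with 0 lower. Sst is a member of the neuropeptide list and Calb2 of the olfactory list, so these counts repeat genes given above. Without the intensity filter the neuropeptide list had 3 higher and 0 lower of 16. The olfactory list then had 2 higher and 1 lower of 6, beside 6.54% higher and 8.79% lower over all genes. Axon guidance and adhesion genes had 7 higher and 3 lower of 27. Both ependymal and cilium genes tested were higher. Genes of cholesterol synthesis were higher in 5 of 17 cases and lower in 0, with a median of 0.39.

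Genes of oxidative phosphorylation were higher in 2 of 31 cases, and those of hypoxia and glycolysis were higher in 5 and lower in 2 of 22. Chromatin and histone variant genes were lower in 5 of 19 cases, immediate early and stress genes in 4 of 14, glucocorticoid-induced genes in 2 of 11, Hox genes in 1 of 4 and pituitary genes in 1 of 4, with 0 higher in each of these 5 lists. Of 18 ribosomal protein genes limma called 0, with a median of -0.08. The 1 maternally expressed gene of proximal chromosome 7 that was tested was not called.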
